A study of Caenorhabditis elegans with 21 samples.

Results

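ERGO-1 target genes that lie scattered over the genome of Caenorhabditis elegans were followed in the small RNA libraries of 5 genotypes. The set was given as 10 sequence names, and 7 of them were among the 20134 gene identifiers of the count table: K02E2.6, C44B11.6, E01G4.5, Y116F11A.1, F14F7.5, F52D2.6 and C18D4.4. The other 3 names, E01G4.7, F39E9.7 and H16D19.4, are annotated pseudogenes and were not analysed here. The table covered 198 of 2128 annotated pseudogenes, against 19850 of 19985 annotated protein-coding genes. The mutants were a dpf-3 null, DPF-3 S784A (an alanine in place of a serine of the DPF-3 protein), mut-2(ne3370) and mut-7(ne4255), each with 3 libraries A to C, and wild type had 9 libraries A to I. All were whole worms at the L4 larval stage, raised at 15 °C on NA22 bacteria, and no further allele, transgene or treatment is given for any group. The RNA was treated with a 5′ polyphosphatase, which opens 5′ triphosphate ends to the ligation of adapters, so that small RNAs made by RNA-dependent RNA polymerases can enter a library.

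ERGO-1 is an Argonaute protein of the oocyte and embryo that carries primary small RNAs of the 26G class, which are made with the RNA-dependent RNA polymerase RRF-3, Dicer and the ERI proteins. Binding of such a primary small RNA to its target leads to many secondary small RNAs of the 22G class, copied from the target by other RNA-dependent RNA polymerases with the help of the mutator proteins and held by WAGO Argonautes. Targets of ERGO-1 are often recently duplicated, poorly conserved genes and pseudogenes. MUT-2 (also RDE-3) is a nucleotidyltransferase and MUT-7 belongs to a family of exonucleases, and both are mutator proteins. DPF-3 is a serine peptidase of the dipeptidyl peptidase family, and the title of the series concerns the processing of Argonautes by a protease. The table does not separate the size classes of small RNAs, so every level below is a sum over all small RNAs assigned to a gene.

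By the WBcel235 annotation, K02E2.6 lies on chromosome V (20380561 to 20382036, plus strand, 2 exons), Y116F11A.1 also on V (19730580 to 19732242, plus strand, 4 exons) and C18D4.4 on V as well (17530813 to 17531510, minus strand, 3 exons). C44B11.6 is a gene of 189 bases and 1 exon on chromosome III (3153148 to 3153336, plus strand), and F14F7.5 is a gene of 4408 bases at the other end of III (13032001 to 13036408, plus strand, 5 exons). E01G4.5 lies on chromosome II (13472401 to 13473995, plus strand, 6 exons), and F52D2.6 on X (1975992 to 1976594, plus strand, 2 exons). The pseudogene E01G4.7 lies downstream of E01G4.5 on the same strand (13477471 to 13478929), so this pair is not scattered. All 7 are annotated as protein-coding. Their exonic length had a median of 956 bases and their number of exons a median of 3, against 1163 bases and 5 exons over the 20055 genes of the table found in the annotation. No protein function is given for them in the annotation used here.

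Counts assigned to features ranged over the 21 libraries between 40693 and 583038, and the share of reads in no feature between 53.1% and 90.7%. Levels are given as CPM, a gene's counts relative to its library's total after TMM scaling, so 3 counts corresponded to between 6.07 and 50.7 CPM. The wild-type libraries fell apart into 2 sets, of A to F on one side and G to I on the other, a split that no label explains. The summed small RNAs of 10 spermatogenesis genes differed between these sets: they came to between 0 and 70.7 CPM in A to F, where gsp-4, spe-11, ssp-9, ssp-10, msd-1 and msp-3 had no count, and to between 182 and 280 CPM in G to I, where all 10 had counts. The list's spe-9 went the other way, with 13 counts over set A to F and 7 over set G to I. The same sum averaged 23.9 CPM for the null, 29.9 CPM for S784A, 66.3 CPM for mut-2 and 140 CPM for mut-7. Its part in the differences below was not tested. The oocyte and maternal list, for the cells in which ERGO-1 is known to act, summed to 2552 CPM in set A to F and 2636 CPM in set G to I. That sum rested mostly on glh-1, pgl-1 and cbd-1 (3319, 2721 and 1822 counts over all libraries) and does not show that its genes were alike in the sets. The median log2 fold change of its tested genes in mut-7 was 0.66 against A to F (7 genes) and -0.53 against G to I (8 genes). Every comparison of a tested member with wild type is therefore given against all 9 libraries and against each set. The labels do not place a mutant with either set. Counts over the other gene lists are against all 9 libraries unless a set is named. The 4 comparisons share these wild-type libraries and are not independent of each other. Small RNAs of dpf-3 itself came to 3, 1 and 1 counts in the null libraries, against 12 to 39 counts in wild-type libraries. No label states whether replicate libraries came from different cultures, and p-values rest on the spread among these libraries alone, which may be technical. The main fit gives wild type 1 mean, so the gap between its 2 sets enters this spread, also for comparisons between mutants. The common dispersion, a measure of spread shared by all features, was 0.0947 in the main fit and 0.00466 with wild type fitted as 2 sets. A member not called in the main fit may therefore still differ.

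The members differed widely in level. Per kilobase of exon, C44B11.6 ranked 3 and K02E2.6 ranked 10 of 20055 genes in wild type, and E01G4.5 ranked 211. Y116F11A.1 ranked 1945, F52D2.6 ranked 5072 and F14F7.5 ranked 5377. Expressed per kilobase of exon, the wild-type level of C44B11.6 was 29521 ± 9137 CPM per kilobase and that of K02E2.6 was 13476 ± 7629 (SD, n = 9 each). That of E01G4.5 was 806 ± 512, of Y116F11A.1 59.04 ± 43.6, of F52D2.6 18.7 ± 17.5 and of F14F7.5 16.8 ± 12.9 CPM per kilobase. These SDs include the gap between the 2 wild-type sets. Within each set, C44B11.6 lay above K02E2.6. In A to F they had 35468 ± 2195 and 18518 ± 1261 CPM per kilobase (SD, n = 6), and in G to I 17628 ± 1901 and 3392 ± 168 (n = 3). The order of Y116F11A.1 and F14F7.5 depended on the set. In A to F they had 83.2 ± 30.2 and 8.76 ± 4.36 CPM per kilobase, and in G to I 10.7 ± 7.63 and 33.0 ± 4.95. C18D4.4 had 1 count in all libraries together, in DPF-3 S784A A, and its other 20 values were 0.

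K02E2.6, with the most counts of the set, had 20643, 22700 and 20032 CPM in dpf-3 null worms and 19628, 19180 and 20736 CPM in DPF-3 S784A. It had 794, 553 and 599 CPM in mut-2 and 2697, 1982 and 2144 CPM in mut-7. In wild type it had a lowest value of 3565, a median of 19245 and a highest value of 22104 CPM. The dpf-3 libraries lay in or, for null B, just over the range of wild-type A to F (18611 to 22104 CPM) and above wild-type G to I (3565 to 3936 CPM), and all mut-2 and mut-7 libraries lay below every wild-type library.

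C44B11.6, the 189-base gene, had 7315, 6430 and 6476 CPM in dpf-3 null worms and 6164, 5510 and 6264 CPM in DPF-3 S784A. It had 253, 277 and 316 CPM in mut-2 and 987, 915 and 964 CPM in mut-7. In wild type its lowest value was 3072, its median 6286 and its highest 7284 CPM. Again mut-2 was lowest, mut-7 next and without overlap, and wild-type G to I (3072 to 3742 CPM) lay between the mutators and the other libraries.

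E01G4.5 had 1815, 1779 and 1821 CPM in dpf-3 null worms and 1125, 1703 and 1234 CPM in DPF-3 S784A. It had 591, 101 and 1215 CPM in mut-2, on 35, 8 and 77 counts, and 62.98, 50.5 and 58.2 CPM in mut-7. In wild type its lowest value was 122, its median 1389 and its highest 1910 CPM. The order of the mutators was thus turned round from that of K02E2.6 and C44B11.6: mut-7 was below all other libraries, whereas the mut-2 libraries lay far apart and overlapped wild type.

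Y116F11A.1 had 94.6, 85.8 and 94.7 CPM in dpf-3 null worms and 216, 289 and 206 CPM in DPF-3 S784A. It had 84.5, 12.6 and 110 CPM in mut-2, on 5, 1 and 7 counts, and 0, 6.31 and 8.31 CPM in mut-7, on 2 counts in all. In wild type its lowest value was 3.94, its median 61.6 and its highest 133 CPM. DPF-3 S784A lay above every other library, and mut-2 B was again the lowest of the mut-2 libraries, as it was for E01G4.5.

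F14F7.5 had its highest levels in mut-7. It had 104, 177 and 146 CPM in dpf-3 null worms and 64.9, 0 and 37.4 CPM in DPF-3 S784A, the last on 6, 0 and 4 counts. It had 84.5, 62.9 and 63.1 CPM in mut-2 and 367, 423 and 391 CPM in mut-7. In wild type its lowest value was 15.3, its median 31.6 and its highest 105 CPM. All mut-7 libraries lay above all other libraries, and among wild-type libraries G to I (78.8 to 105 CPM) lay above A to F (15.3 to 48.0 CPM).

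F52D2.6 never exceeded 5 counts in a library and did not pass the filter on low counts. It had 5, 3 and 2 counts in dpf-3 null libraries, 4, 2 and 3 in S784A libraries, 1 in each mut-2 library and 0 in each mut-7 library, against 0 to 5 counts in wild type with a total of 19. Scaled for depth, the ratio of wild type to mut-2 was 0.562, with a 95% counting interval of 0.165 to 2.96. Where the filter was left out or set at a mean of 10 CPM, F52D2.6 was called lower in both mut genotypes than in both dpf-3 genotypes (edgeR, adjusted p = 0.0270 and 0.0347) and was not called in the other comparisons. Such intervals cover counting error only.

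**Figure D1:**
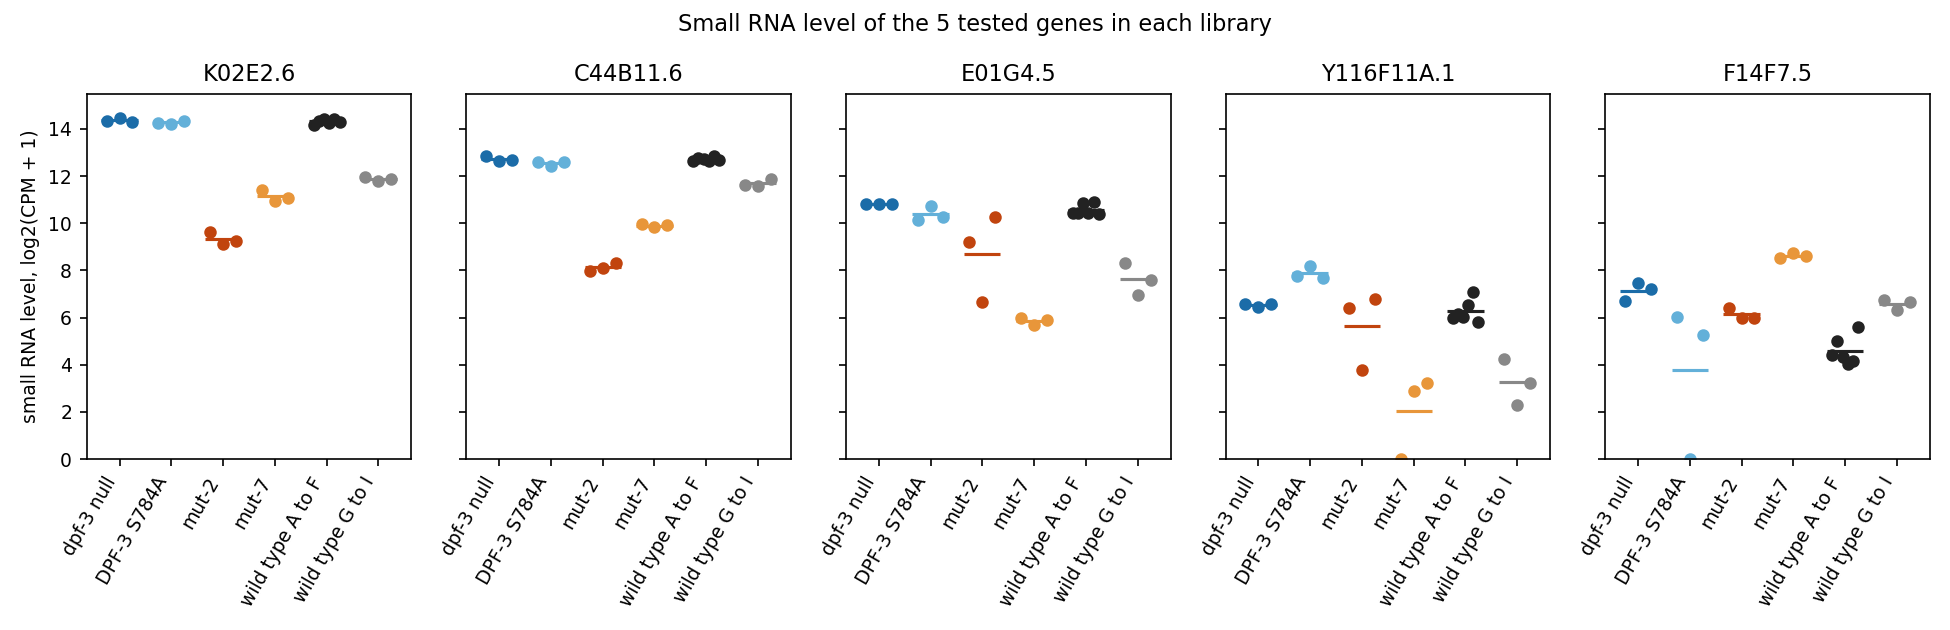
Small RNA level of the 5 tested genes, as log2(CPM + 1) on the vertical axis, for the 4 mutants and for wild type in its 2 sets; points are libraries and lines are means of the points. K02E2.6 and C44B11.6 were lowest in mut-2, E01G4.5 and Y116F11A.1 were lowest in mut-7, and F14F7.5 was highest in mut-7.

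In mut-2, the nucleotidyltransferase mutant, small RNAs of K02E2.6 and C44B11.6 fell and those of the other 3 tested members did not pass the test. K02E2.6 averaged 649 ± 128 CPM in mut-2 and 14918 ± 8445 CPM in wild type (SD, n = 3 and 9), 23.0-fold lower, with a log2 fold change of -4.53 ± 0.65 (SE, edgeR quasi-likelihood test, adjusted p = 3.97e-06). C44B11.6 averaged 282 ± 31.4 CPM in mut-2 and 5579 ± 1727 CPM in wild type, 19.7-fold lower (log2 -4.30 ± 0.34, adjusted p = 1.27e-09). E01G4.5 had a log2 fold change of -0.80 (adjusted p = 0.350), Y116F11A.1 of 0.31 (adjusted p = 0.780) and F14F7.5 of 0.35 (adjusted p = 0.697). Thus 2 of 5 tested members were lower and 0 higher, where 31.5% of all 5038 features tested were lower and 16.1% higher. The median log2 fold change of the tested members was -0.80, against -0.02 over all features tested. With the size factors of DESeq2 the features called were 365 higher and 1753 lower, against 809 and 1587 with TMM.

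Both falls in mut-2 held against each wild-type set. Against A to F the log2 fold change of K02E2.6 was -5.06 and that of C44B11.6 was -4.63, and against G to I they were -2.74 and -3.75. E01G4.5 depended on the set: its log2 fold change was -1.44 (adjusted p = 2.995e-14) against A to F and 1.23 (adjusted p = 9.3e-07) against G to I. In whole worms, fewer cells that carry these small RNAs and less small RNA per cell cannot be told apart. The edgeR fit pools the spread of a gene over all genotypes, and the mut-2 libraries of E01G4.5 (101 to 1215 CPM) lay farther apart than its libraries of the other mutants or within either wild-type set. Y116F11A.1 was higher against G to I (log2 2.24, adjusted p = 0.000707) but not past the threshold against A to F (-0.47, adjusted p = 0.363), and F14F7.5 was higher against A to F (1.504, adjusted p = 0.00954) but not past it against G to I (-0.68, adjusted p = 0.150). Against A to F, 3 of 5 members were lower and 1 higher, where 34% and 20.4% of 4026 features were. Against G to I, 2 were lower and 2 higher, where 34.4% and 17.3% of 3303 features were.

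In mut-7 all 5 tested members changed: K02E2.6, C44B11.6, E01G4.5 and Y116F11A.1 fell and F14F7.5 rose. K02E2.6 averaged 2275 ± 375 CPM in mut-7 and 14918 ± 8445 CPM in wild type (SD, n = 3 and 9), 6.56-fold lower (log2 -2.71 ± 0.56, adjusted p = 0.000283). C44B11.6 averaged 955 ± 36.6 CPM in mut-7 and 5579 ± 1727 CPM in wild type, 5.83-fold lower (log2 -2.54 ± 0.29, adjusted p = 1.26e-07). The largest fall was that of E01G4.5, which averaged 57.2 ± 6.30 CPM in mut-7 and 1100 ± 699 CPM in wild type, 19.1-fold lower (log2 -4.25 ± 0.90, adjusted p = 0.000352). F14F7.5, the longest member, averaged 394 ± 27.9 CPM in mut-7 and 48.5 ± 37.0 CPM in wild type, 7.18-fold higher (log2 2.84 ± 0.41, adjusted p = 3.37e-06).

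Y116F11A.1 had 2 counts in mut-7 and 105 in wild type, and its log2 fold change of -3.16 passed the test (adjusted p = 0.0212). After scaling for depth the ratio of wild type to mut-7 was 8.62, with a 95% counting interval of 2.33 to 72.1, and against G to I it was 2.14 with an interval of 0.492 to 19.42. The call was lost without any of the 3 mut-7 libraries, with adjusted p of 0.0706 without A, 0.0738 without B and 0.0512 without C, and also under library totals (log2 -1.84, adjusted p = 0.106) and limma-voom (log2 -1.83, adjusted p = 0.423). In mut-7, 4 of 5 tested members were thus lower and 1 higher, where 33.2% of all features tested were lower and 23.3% higher. The median log2 fold change of the tested members was -2.71, against 0.11 over all features. With the size factors of DESeq2 the features called were 421 higher and 1891 lower, against 1173 and 1674 with TMM.

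Against wild-type A to F, the same 4 members were lower in mut-7 and F14F7.5 was higher, at log2 3.97 (adjusted p = 1.07e-35), where 35.3% and 28.9% of features were called in these directions. Against G to I, K02E2.6 (log2 -1.05), C44B11.6 (-2.12) and E01G4.5 (-2.30) were lower and F14F7.5 (1.70) was higher, where 36.5% and 21.6% of features were, and Y116F11A.1 did not pass (-1.28, adjusted p = 0.235). The fall of K02E2.6 in mut-7 thus ranged between 2.08-fold and 9.81-fold with the wild-type set used.

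**Figure D2:**
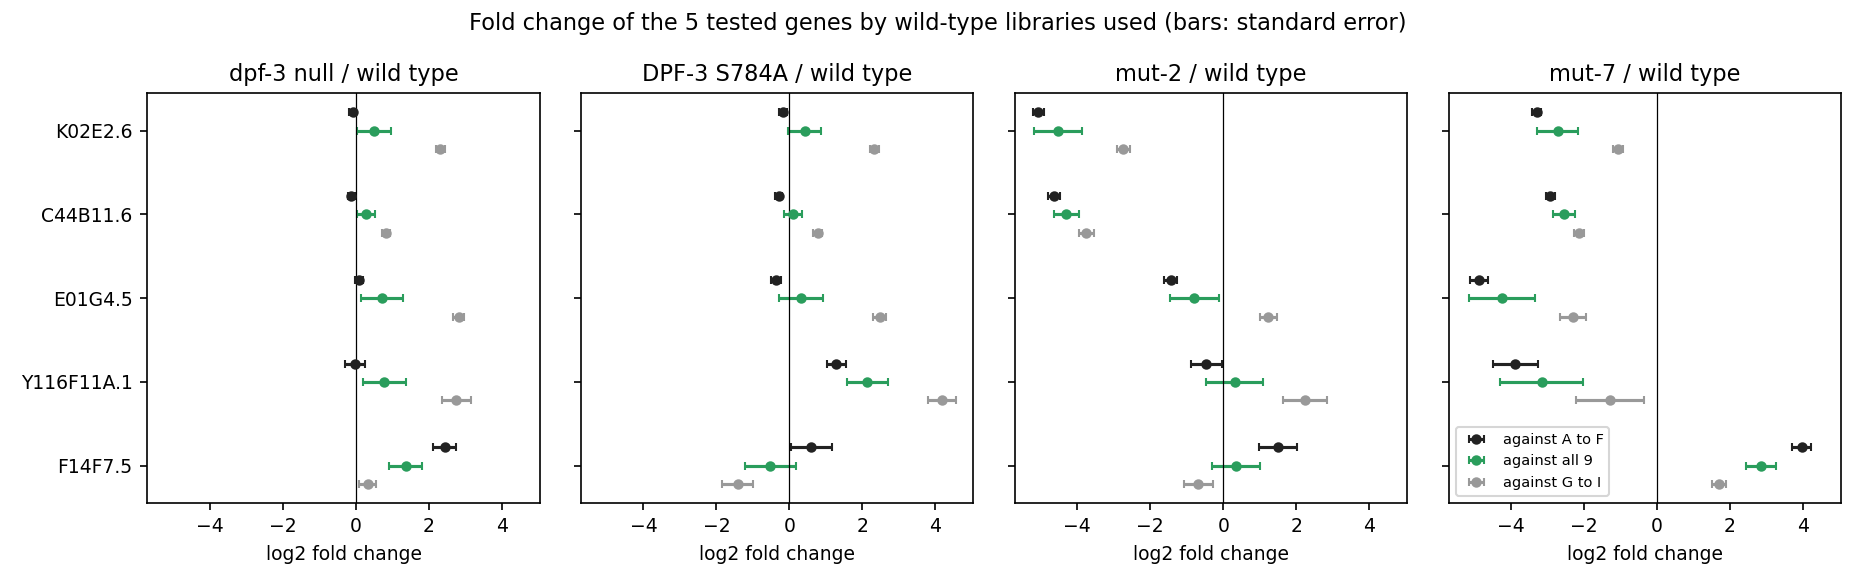
Log2 fold change of each tested gene (horizontal axis) in the 4 mutants over wild type, against wild-type A to F, all 9 wild-type libraries and wild-type G to I; bars are standard errors of the fit. In mut-7 all values keep their side of 0, whereas in the dpf-3 genotypes K02E2.6 and C44B11.6 lie just below 0 against A to F and above 0 against G to I.

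Set against each other, mut-2 and mut-7 differed at C44B11.6, which was lower in mut-2 (282 CPM in mut-2 and 955 CPM in mut-7, log2 -1.76 ± 0.35, adjusted p = 0.0150). K02E2.6 had a log2 fold change of -1.81 (adjusted p = 0.221), F14F7.5 of -2.49 (adjusted p = 0.0872), E01G4.5 of 3.45 (adjusted p = 0.135) and Y116F11A.1 of 3.47 (adjusted p = 0.292). Of the 5 members 1 was called, where 0.457% of all features passed as lower and 0.397% as higher. With wild type fitted as 2 sets, which narrows the spread, K02E2.6, C44B11.6 and F14F7.5 were lower in mut-2 and E01G4.5 and Y116F11A.1 higher. All features called in that fit were not counted for this comparison, so these calls have no share of all features beside them. The difference of E01G4.5 passed without mut-2 B (log2 3.98, adjusted p = 0.0344) or wild type H (3.48, adjusted p = 0.0471). That of F14F7.5 passed without wild type G (-2.46, adjusted p = 0.0420) or I (-2.46, adjusted p = 0.0478). The call of C44B11.6 was lost without mut-2 A (adjusted p = 0.109), mut-2 C (0.0860), mut-7 A (0.0578) or mut-7 B (0.0538).

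In the dpf-3 null, F14F7.5 rose and the other 4 tested members did not pass the test against all 9 wild-type libraries. F14F7.5 averaged 142.2 ± 37.0 CPM in the dpf-3 null and 48.5 ± 37.0 CPM in wild type (SD, n = 3 and 9), 2.58-fold higher (log2 1.37 ± 0.45, adjusted p = 0.0207). K02E2.6 had a log2 fold change of 0.50 (adjusted p = 0.414), C44B11.6 of 0.27 (0.398), E01G4.5 of 0.73 (0.345) and Y116F11A.1 of 0.78 (0.315). Hence 1 of 5 tested members was higher and 0 lower, where 13.5% of all features were higher and 23.2% lower. The median of the tested members was 0.73, against 0.18 over all features. With the size factors of DESeq2 the features called were 59 higher and 1302 lower, against 679 and 1167 with TMM, and F14F7.5 was no longer called (log2 1.02, adjusted p = 0.103). Scaling by library totals moved the median of all features to 0.76 in the null and 0.61 in S784A, and 5 members were then higher in the null and 3 in S784A. Of all 5038 features, 2177 were then higher in the null and 1577 in S784A.

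Against wild-type A to F, F14F7.5 was 5.40-fold higher in the dpf-3 null (log2 2.43, adjusted p = 2.11e-12) and the other 4 members had log2 fold changes between -0.12 and 0.08, where 16% of features were higher and 28.8% lower. Against G to I, the picture was the other way round: F14F7.5 did not pass (log2 0.33, adjusted p = 0.243), and K02E2.6 (2.31), C44B11.6 (0.84), E01G4.5 (2.82) and Y116F11A.1 (2.76) were higher, where 23.3% of features were higher and 30.2% lower. The rise of F14F7.5 against all 9 libraries was lost without dpf-3 null B (adjusted p = 0.161) or C (0.0604), and also by the DESeq2 Wald test (adjusted p = 0.117), with totals of all reads (0.383) or with only the groups compared in the edgeR fit (0.107).

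In DPF-3 S784A, Y116F11A.1 rose and the other tested members did not pass. It averaged 237 ± 45.4 CPM in DPF-3 S784A and 56.4 ± 41.7 CPM in wild type (SD, n = 3 and 9), 4.37-fold higher (log2 2.13 ± 0.56, adjusted p = 0.00566). K02E2.6 had a log2 fold change of 0.41 (adjusted p = 0.559), C44B11.6 of 0.10 (0.815), E01G4.5 of 0.31 (0.770) and F14F7.5 of -0.53 (0.633). Hence 1 of 5 was higher and 0 lower, where 7.94% of all features were higher and 21% lower, and the median was 0.31 against 0.04 over all features. With the size factors of DESeq2 the features called were 71 higher and 1178 lower, against 400 and 1057 with TMM. Without DPF-3 S784A B the call of Y116F11A.1 was lost (log2 1.84, adjusted p = 0.0547).

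The rise of Y116F11A.1 in DPF-3 S784A held against each set, at log2 1.28 (adjusted p = 1.35e-05) against A to F and 4.17 (adjusted p = 1.36e-21) against G to I where wild type had 14 counts. Against A to F, C44B11.6 (log2 -0.29, adjusted p = 0.00984) and E01G4.5 (-0.37, adjusted p = 0.0206) were lower, a difference of 1.22-fold and 1.29-fold, where 27.2% of features were lower and 7.1% higher. Against G to I, K02E2.6 (2.33), C44B11.6 (0.77), E01G4.5 (2.47) and Y116F11A.1 were higher and F14F7.5 was lower (-1.42, adjusted p = 0.00334), where 19.9% of features were higher and 27.6% lower.

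No member was called between the dpf-3 null and DPF-3 S784A, where 0% of all features passed as higher and 0.0397% as lower. F14F7.5 had a log2 fold change of 1.89 (adjusted p = 0.970) and Y116F11A.1 of -1.35 (adjusted p = 0.972), and 1 member, F14F7.5, had an unadjusted p under 0.05. Both were called with wild type fitted as 2 sets, F14F7.5 at 1.85 (adjusted p = 0.00242) and Y116F11A.1 at -1.32 (adjusted p = 0.00171), and the DESeq2 Wald test called 0 members. All features called under these 2 settings were not counted for this comparison, so no share of all features stands beside these calls. These p-values, by the edgeR quasi-likelihood test, do not show that the dpf-3 genotypes have equal levels at the other 3 members.

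The comparison of both mut genotypes with both dpf-3 genotypes uses no wild-type mean. K02E2.6 was 16.9-fold lower in the mut genotypes (log2 -4.08 ± 0.47, adjusted p = 4.53e-07), C44B11.6 12.22-fold (-3.61 ± 0.24, adjusted p = 2.55e-10), E01G4.5 8.23-fold (-3.04 ± 0.63, adjusted p = 0.000527) and Y116F11A.1 7.34-fold (-2.88 ± 0.72, adjusted p = 0.00313). F14F7.5 had a log2 fold change of 1.18 (adjusted p = 0.0819) and was called without wild type G (1.22, adjusted p = 0.0461) or I (1.22, adjusted p = 0.0499). These are 4 of 5 tested members lower and 0 higher, where 27.9% of all features were lower and 7.56% higher. The call of Y116F11A.1 was lost under limma-voom (log2 -2.80, adjusted p = 0.0746), which left 3 members lower, and 5 were lower with no filter or a mean of 10 CPM, F52D2.6 being the fifth. For these other settings the share of all features called in this comparison was not counted. Whether the mut and dpf-3 libraries were prepared at the same time is not given, so genotype and any such difference cannot be told apart.

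Summed over the 7 genes of the table, the dpf-3 null gave the members 2.97% ± 0.117 of its feature counts, S784A 2.66% ± 0.0278, mut-2 0.258% ± 0.0924 and mut-7 0.578% ± 0.0639 (SD, 3 libraries each), against 1.25% ± 0.472 for wild type (9 libraries). Within wild type the share was 1.56% for set A to F and 0.626% for set G to I. When reads in no feature were added to the total, the share was 0.625% for the dpf-3 null, 0.472% for S784A, 0.0253% for mut-2 and 0.0802% for mut-7, against 0.419% for wild type (0.484% for set A to F and 0.290% for set G to I). The dpf-3 genotypes thus lay above wild-type A to F by share of feature counts, whereas by share of all reads DPF-3 S784A lay among them. The TMM factors were 1.03 to 1.09 in the dpf-3 genotypes and 0.557 to 0.614 in wild-type A to F, and after TMM scaling the summed level was 29922 ± 1304 CPM in the dpf-3 null, 27490 ± 918 CPM in DPF-3 S784A and 28865 ± 2007 CPM in wild-type A to F. The lower shares of mut-2 and mut-7 than of wild-type A to F stood under all 3 scalings. Against set G to I this held for mut-2 but not for mut-7. By share of feature counts the mut-7 libraries (0.534% to 0.651%) overlapped G to I (0.579% to 0.656%).

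**Figure D3:**
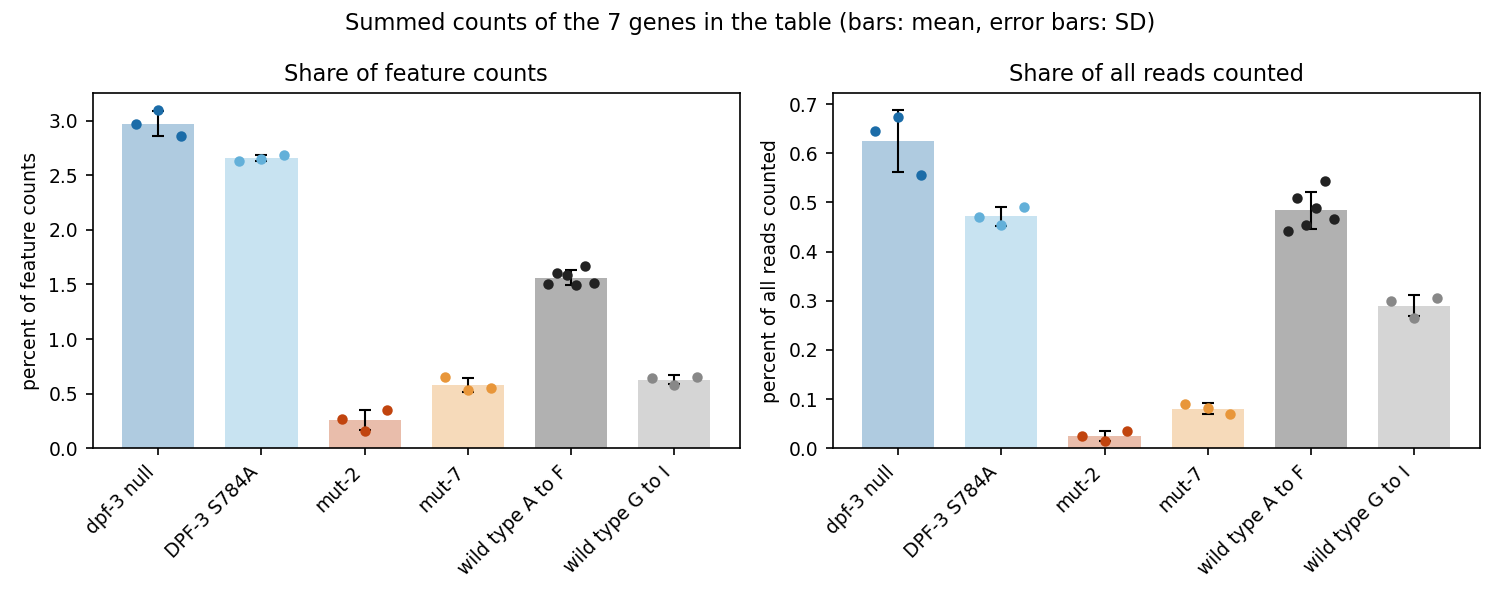
Summed counts of the 7 genes as a percentage of feature counts (left) and of all reads counted (right), by genotype with wild type in its 2 sets; bars are means, error bars SDs and points libraries. The mut-2 and mut-7 libraries are below wild-type A to F in both panels, while the gap between the dpf-3 genotypes and A to F is wide on the left and narrow or absent on the right. On the left, the mut-7 libraries overlap wild-type G to I.

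K02E2.6 and C44B11.6 made up most of this sum. K02E2.6 held 70.6% of the member counts of the dpf-3 null, 72.2% of S784A, 41.2% of mut-2 and 61.5% of mut-7, against 71.0% of wild-type A to F and 50.8% of wild-type G to I. C44B11.6 held 22.6% of the null, 21.7% of S784A, 18.2% of mut-2 and 26.04% of mut-7, against 23.2% of wild-type A to F and 44.9% of wild-type G to I. E01G4.5 held between 9.88% and 52.4% in the mut-2 libraries and 1.55% in mut-7. F14F7.5 held 0.475% of the null, 0.123% of S784A, 4.51% of mut-2 and 10.8% of mut-7, against 0.0879% in wild-type A to F and 1.28% in wild-type G to I. Y116F11A.1 held 0.307% of the null and 0.866% of S784A, against 0.274% of wild-type A to F. K02E2.6 and C44B11.6 thus held shares in the dpf-3 genotypes near those in wild-type A to F, while the share of F14F7.5 was higher in the null and that of Y116F11A.1 higher in S784A.

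Across the 21 libraries the tested members fell into 2 pairs and F14F7.5. Pearson's r of log2(CPM + 1) was 0.96 between K02E2.6 and C44B11.6 and 0.89 between E01G4.5 and Y116F11A.1, and across these pairs it was between 0.42 and 0.70. F14F7.5 had r between -0.63 and -0.39 with the other 4. These values are descriptions over libraries that share genotypes and depths, with no test. Of 4538 other tested genes, the 4 most like K02E2.6 were Y37E11B.2 (r = 0.992), C36A4.11 (0.989), K06B9.6 (0.988) and W05H12.2 (0.987). All 4 are on the list of other ERGO-1 targets, which was written with earlier results of these data known. The next gene, his-15 (0.985), is not on that list. Like K02E2.6, C36A4.11 averaged 13626 CPM in null, 12811 CPM in S784A, 450 CPM in mut-2 and 2540 CPM in mut-7 libraries, against 12715 CPM in wild-type A to F and 3322 CPM in wild-type G to I.

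The gene most like E01G4.5 was F39F10.4 (r = 0.968), also on that list. It had 4 mut-2, 0 mut-7 and 226 wild-type counts, as totals not scaled for depth or number of libraries. Scaled for depth, F39F10.4 had 0 to 47.3 CPM in mut-2 libraries. Wild-type A to F had 174 to 219 CPM and G to I 7.88 to 24.3 CPM. The gene most like Y116F11A.1 was Y116A8B.1 (r = 0.958), which averaged 516 CPM in DPF-3 S784A and 44 CPM in mut-7, against 138 CPM in wild type. For F14F7.5 it was F54E12.2 (r = 0.906), with 250 CPM in mut-7, against 157 CPM in wild type. The gene most like C44B11.6 was sel-15 (r = 0.992), with 0 mut-2, 3 mut-7 and 200 wild-type counts. These sel-15 counts are also totals not scaled for depth or number of libraries. Neither sel-15, Y116A8B.1 nor F54E12.2 is on that list. With the mean of the 5 tested members, the likest genes were T28A8.6 (r = 0.935), Y17D7C.6 (0.927), prg-1 (0.923), clec-166 (0.919) and hrpk-2 (0.916). prg-1 encodes the Argonaute of the piRNA pathway.

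**Figure D4:**
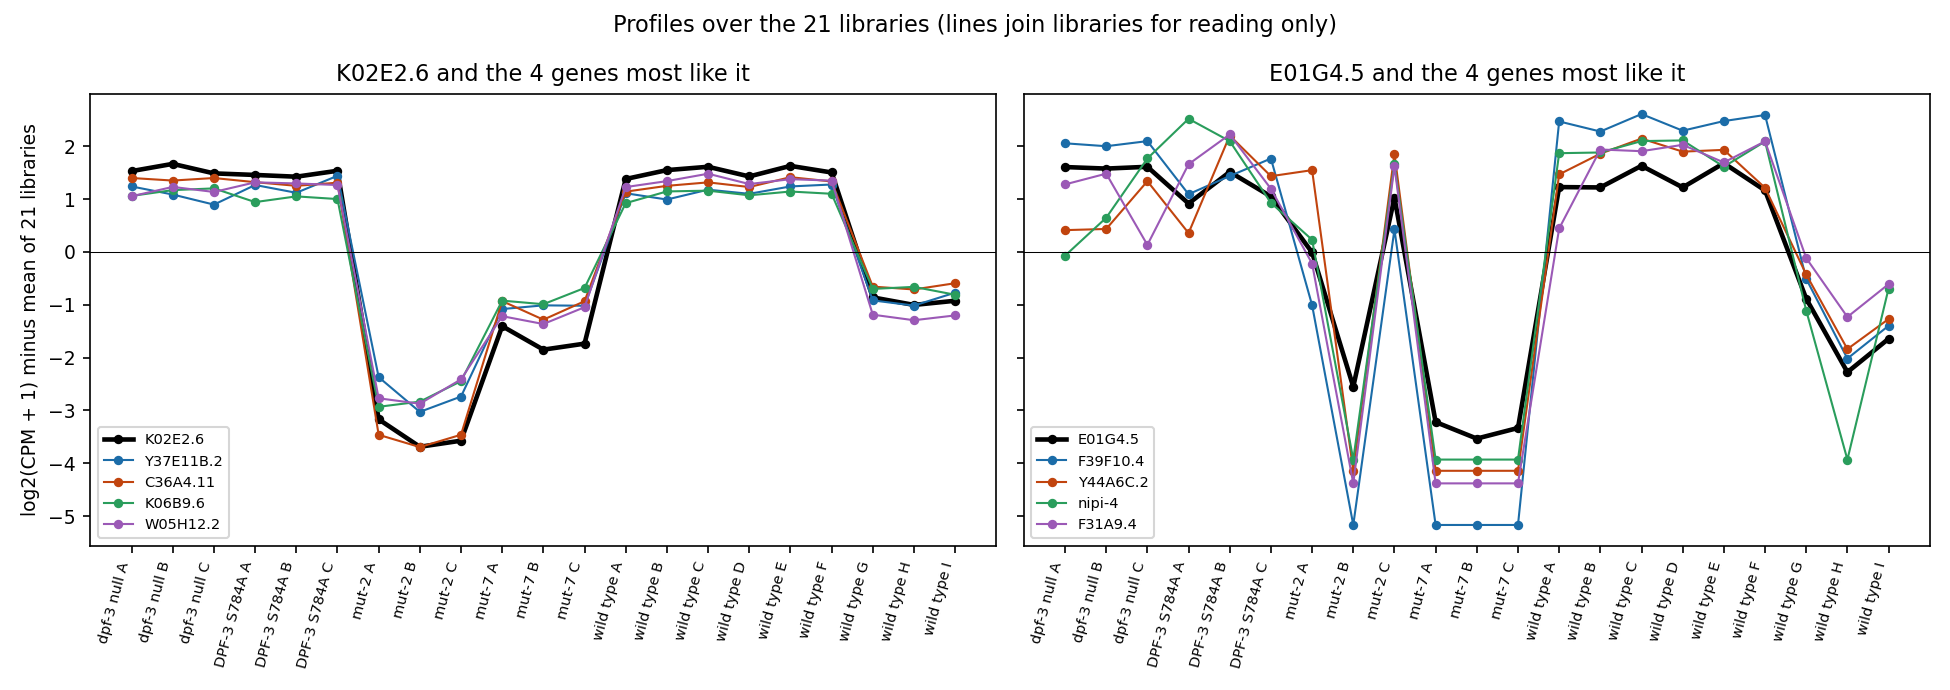
Level of K02E2.6 (left) and E01G4.5 (right) with the 4 genes most like each, as log2(CPM + 1) minus the mean over the 21 libraries, by library; lines join libraries for reading only. The mut-2 libraries of K02E2.6 lie together and below mut-7, whereas mut-2 B of E01G4.5 lies apart from mut-2 A and C.

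The surroundings of the members were searched within 2000 bases for other features. Counts given for these features are group totals. They are not scaled for depth or for the larger number of wild-type libraries, so they cannot be compared directly between groups. K02E2.11, on the same strand 1279 bases from K02E2.6, was among the 5 genes most like C44B11.6 (r = 0.978). It had 3405 null, 1304 S784A, 21 mut-2, 111 mut-7 and 7636 wild-type counts. Scaled for depth, K02E2.11 had 5565 to 6797 CPM in null libraries and 4177 to 5235 CPM in S784A libraries. Wild-type A to F had 5014 to 6324 CPM and G to I 1142 to 1635 CPM. The mut-2 libraries had 47.3 to 186 CPM and the mut-7 libraries 265 to 324 CPM. C18D4.12, 227 bases from C18D4.4, had 10 null, 8 S784A, 0 mut-2 and 24 mut-7 counts, against 335 in wild type, of which 315 lay in G to I. Unnamed intervals of the table near the tested members held almost nothing: 28 counts over all libraries at K02E2.6, 1 at E01G4.5, 2 at Y116F11A.1 and 0 at C44B11.6 and F14F7.5. The interval near the pseudogene F39E9.7 held 0 null, 2 S784A, 1 mut-2 and 1 mut-7 counts, against 60 in wild type. The interval near the pseudogene H16D19.4 held 15 null, 7 S784A, 0 mut-2 and 2 mut-7 counts, against 22 in wild type. Several targets of this kind belong to duplicated families, and the handling of reads with several positions is not given, so the split of counts between a member and any near-identical copy is uncertain.

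The other ERGO-1 targets, 20 in the table and 18 tested, were counted beside all features tested. In mut-2, 15 were lower and 0 higher (median log2 -3.20), where 31.5% of features were lower and 16.1% higher, among them Y17D7B.4 (-6.76), C08F11.7 (-6.13) and eri-6 (-5.32), and in mut-7 13 were lower and 0 higher (median -1.84), where 33.2% were lower and 23.3% higher, with Y17D7B.4 at -6.16, eri-6 at -5.88 and F39F10.4 without a count. In the dpf-3 null 4 were lower and 0 higher (median 0.34), a lower share near the 23.2% of all features, of which 13.5% were higher. The lowest were C08F11.7 (log2 -4.20, 76.2 CPM in the null and 1452 CPM in wild type) and sosi-1 (-3.28). In DPF-3 S784A 3 were lower and 3 higher, where 21% and 7.94% of features were, with C08F11.7 at -3.84 and sosi-1 at -3.67. The counts of both dpf-3 genotypes depended on the wild-type set. Against A to F, of 16 tested, 5 were lower and 0 higher in the null, where 28.8% and 16% of features were. In S784A 5 were lower and 3 higher, where 27.2% and 7.1% were. Against G to I, 4 of 16 were lower and 12 higher in each, where 30.2% and 23.3% of features were in the null and 27.6% and 19.9% in S784A. The difference between this list and the scattered set was not tested.

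Small RNAs against the genes of the pathway itself were counted against all 9 wild-type libraries. Their counts stand beside the same shares of all features: 13.5% higher and 23.2% lower for the null, 7.94% and 21% for S784A, 16.1% and 31.5% for mut-2, and 23.3% and 33.2% for mut-7. Of 9 tested genes of the ERGO-1 26G pathway, 3 were higher in null worms and 1 in DPF-3 S784A, with eri-3, of the ERI complex, at log2 1.27 and 1.18 and eri-1, an exonuclease, at 0.83 in the null. In mut-2, 3 were higher and 2 lower, and in mut-7 4 were higher and 2 lower: henn-1, a small RNA methyltransferase, was at 1.97 in mut-2 and eri-1 at 1.85 in mut-2 and 1.67 in mut-7, while eri-3 was at -1.82 in mut-7. ergo-1 itself had log2 fold changes of -0.22 (null), -0.10 (S784A), -0.74 (mut-2) and 0.02 (mut-7), none of them called. Of 13 tested genes of 22G amplification, 5 were higher in the dpf-3 null, among them mut-15 (0.75) and mut-7 (0.64), and 0 in DPF-3 S784A. In mut-2, 3 were higher and 1 lower and in mut-7 2 were higher and 1 lower, the lower gene being rde-11 at -2.90 in mut-2 and -3.57 in mut-7, while the mut-7 gene was at 1.40 in mut-2 and 1.39 in mut-7 worms. The mut-2 gene had 34 counts or fewer in any genotype and was not tested.

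Of 8 tested genes for 22G Argonautes, 3 were higher in null worms and 5 in DPF-3 S784A, with ppw-2 (also known as wago-3) at 0.79 and 0.66 and wago-1 at 0.68 in both, and 0 were lower. In mut-2, 1 was higher and 2 lower and in mut-7 3 were higher and 3 lower, with wago-1 at 0.72 and 0.97 and sago-1 at -3.31 in mut-7 and with 0 counts in mut-2, against 176 in wild type. Of 8 tested oocyte and maternal genes, 2 were higher and 1 lower in the null, 2 and 0 in S784A, 1 and 0 in mut-2, and 3 and 2 in mut-7. These counts stand beside the same shares of all features. Among them, cbd-1 was at 0.71 in the null and 0.89 in S784A, puf-5 at -2.54 in the null, pgl-1 at 0.62 in S784A, oma-1 at 1.34 in both mut genotypes, and glh-1 at -1.07 in mut-7. The 1 tested spermatogenesis gene, spe-44, was higher in mut-7 (1.51). These lists count small RNAs made against the genes and not their messenger RNA or protein.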

How the data were processed

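Small RNA sequencing of 21 libraries was available as a table that the authors deposited, which holds raw counts for 75393 features (20134 genes and 55259 unnamed intervals), not normalized. The submitters' processing notes name cutadapt 2.3, Bowtie 1.2.3, SAMtools 1.9, HTSeq 0.11.2 and the ce11 build, without giving their roles; the strand setting and the handling of reads with several positions are stated in no source used here. Reads in no feature (53.1% to 90.7% of a library) or ambiguous (0.0110% to 0.110%) were left out of library sizes and tests. Positions come from the WBcel235 annotation.

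Groups were taken from the labels. The main test was edgeR 4.0.16 (quasi-likelihood) in R 4.3.3, with 1 mean per genotype over all 21 libraries, TMM scaling, filterByExpr (5038 features kept, 4543 of them genes) and Benjamini-Hochberg adjustment over these, called at an adjusted p under 0.05. All p-values in the report come from models fitted across all features, by edgeR unless DESeq2 or limma-voom is named. C18D4.4 and F52D2.6 did not pass the filter on low counts, so 5 of 7 members were tested. Alternatives used DESeq2 1.42.0, limma 3.58.1 (voom), other scalings, filters (none, or a mean of 10 CPM) and sample sets. Likeness was Pearson's r of log2(CPM + 1), with pandas 2.3.3 in Python 3.11.15; likeness to members singly and mut-2 libraries taken singly were chosen after seeing the data. Ratios on few counts have exact 95% intervals (scipy 1.17.1), and figures were drawn with matplotlib 3.10.9. The scripts were tested on simulated data, in which wild type was 1 uniform group, so the split of wild type was not covered.

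The members, lists and wild-type sets were chosen with earlier results of these data known. Named genes were all members, in each other list the 2 called genes with the largest change in each comparison with wild type, 6 genes of the pathway or genotypes, the 5 genes most like the members, and features within 2000 bases; further genes named were chosen after their values were seen. All 48 pairs of replicates differed by more than sampling noise.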

Additional observations from a re-analysis of the deposited data

How the results depend on the processing

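The falls of K02E2.6 and C44B11.6 in mut-2, and the falls of C44B11.6, E01G4.5 and K02E2.6 and the rise of F14F7.5 in mut-7, were called with every library left out in turn. Members higher in the dpf-3 null numbered 1, against 0 with DESeq2 size factors, totals of all reads, the DESeq2 Wald test or only the groups compared, 2 with no filter or limma-voom, 4 against wild type G to I, and 5 with library totals or wild type as 2 sets (0 to 1 with a library left out). All features higher in the null numbered 679, against 59 with size factors, 86 with all reads, 60 with the Wald test and 387 with only the groups compared. They numbered 85 of 28149 with no filter, 966 with limma-voom, 771 of 3303 against G to I, 2177 with library totals and 1316 with 2 sets. In S784A 1 was higher, against 3 with library totals and 4 against G to I or with 2 sets (0 to 1 with a library left out), and 0 were lower, against 2 with A to F and 1 with G to I. All features higher in S784A numbered 400, against 1577 with library totals, 658 of 3303 against G to I and 747 with 2 sets. Those lower numbered 1057, against 1095 of 4026 with A to F and 913 of 3303 with G to I. In mut-2 0 were higher, against 1 with library totals, A to F or the replicate block and 2 with G to I. All features higher in mut-2 numbered 809, against 2519 with library totals, 822 of 4026 with A to F, 743 with the block and 573 of 3303 with G to I. In mut-7 4 were lower (3 to 4 with a library left out). Between null and S784A 0 were called, against 1 higher and 1 lower with A to F, G to I or 2 sets, and 2 higher and 1 lower with only the groups compared or the replicate block. Between mut-2 and mut-7 0 were higher, against 1 with library totals, all reads or the DESeq2 Wald test and 2 with no filter, A to F, G to I, 2 sets or the block (0 to 1 with a library left out), and 1 was lower, against 0 with limma-voom, 2 with library totals or all reads, and 3 with no filter, A to F, G to I, 2 sets, only the groups compared or the block (0 to 2 with a library left out). Between the mut and dpf-3 genotypes 0 were higher, against 1 with library totals, A to F, G to I, 2 sets, only the groups compared or the block (0 to 1 with a library left out). As a share of all reads the members held 0.625% (null), 0.472% (S784A), 0.0253% (mut-2), 0.0802% (mut-7) and 0.419% (wild type). For the comparisons between mutants, the features called under these other settings were not counted, so these member counts have no share of all features beside them. The causes were not tested.

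Log2 fold changes not called at first that changed sign were these. C44B11.6 in the null was at -0.12 with DESeq2 size factors, the Wald test or A to F, and with A to F K02E2.6 was at -0.087 and Y116F11A.1 at -0.031. C44B11.6 in S784A was at -0.20 with size factors or the Wald test, -0.21 with all reads, -0.12 with no filter, -0.29 with A to F, -0.17 with the block and -0.10 to 0.11 with a library left out. E01G4.5 in S784A was at -0.0035 with size factors, -0.0084 with the Wald test, -0.37 with A to F, -0.23 with the block and -0.017 to 0.42 with a library left out. K02E2.6 in S784A was at -0.18 with A to F and -0.044 with the block, and F14F7.5 at 0.59 and 0.70. E01G4.5 in mut-2 was at 0.61 with library totals, 1.23 with G to I and 0.020 with 2 sets. Y116F11A.1 in mut-2 was at -0.051 with size factors, -0.11 with all reads or no filter, -0.084 with the Wald test, -0.47 with A to F, -0.016 with the block and -0.31 to 0.87 with a library left out. F14F7.5 in mut-2 was at -0.57 with all reads, -0.21 with no filter and -0.68 with G to I, and K02E2.6 between null and S784A at -0.016 with G to I.

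The replicate letters did not pair the samples: over 30 same-letter pairs the correlation of deviations was -0.0461 to 0.0598. With the replicate block 3 members were lower in mut-2, as with no filter or against A to F, and 2 without it. All features lower in mut-2 numbered 1602 with the block, 2785 of 28149 with no filter and 1369 of 4026 against A to F, and 1587 without the block. Y116F11A.1 and F14F7.5 rest on few counts, with 2 for Y116F11A.1 in mut-7 and 10 for F14F7.5 in S784A.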
